A study of Mus musculus with 32 samples.

Results

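Mouse primary white adipocytes from subcutaneous fat were loaded with cholesterol after silencing of Atf3, and compared with cells that had received scramble siRNA and the same cholesterol. The comparison holds 8 of the 32 libraries of the study, 4 with siAtf3 and 4 with scramble, chosen by their labels alone. Both groups received 400 µM cholesterol carried by methyl-β-cyclodextrin for 6 h, so cholesterol and its carrier are shared and the siRNA is what differs. The labels name no engineered allele, strain or age: Atf3 was knocked down with siRNA, the scramble cells are given as wild type, and the sequences of the siRNAs and the number of different siRNAs per target are not given in the sources used here. The other groups cross scramble, siNfe2l1, siAtf3 and both siRNAs with cholesterol or a control treatment, 4 libraries each. The titles number the libraries as biological replicates and do not say whether they came from separate mice, so p-values measure the spread between these samples.

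ATF3 is a basic leucine zipper protein of the ATF/CREB family, which binds DNA as a dimer with itself or with partners such as JUN. It is induced quickly by many stresses, among them endoplasmic reticulum stress, amino acid shortage and Toll-like receptor signals. ATF3 is known both as a repressor of inflammatory genes in macrophages and, with JUN partners, as an activator. Free cholesterol that exceeds the capacity of a cell to esterify or export it stresses membranes, and adipocytes hold a large store of free cholesterol in their lipid droplets and plasma membrane.

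The 8 libraries held between 23457384 and 27576979 counts assigned to genes. Adipocyte markers were among the most abundant mRNAs by TPM, a level per gene length. TPM is scaled by each library's own total, so its ratios between groups are not those of the CPM values below. Fabp4 ranked 13th and Adipoq 42nd of the 16984 genes tested in the scramble libraries with cholesterol. Adipoq averaged 2140 TPM with siAtf3 and 2235 TPM with scramble. Markers of other cells ranged from low to high levels. The leukocyte marker Ptprc averaged 0.75 TPM with siAtf3 and 0.70 TPM with scramble, the macrophage marker Adgre1 4.87 and 4.33 TPM with siAtf3 and scramble, and the endothelial marker Pecam1 38.3 and 47.3 TPM. The stromal marker Ly6a reached 761 TPM with siAtf3 and 1327 TPM with scramble, where it ranked 95th, and Thy1 reached 156 and 176.7 TPM. Lyz2, a myeloid marker, reached 223.1 and 117.7 TPM, and Acta2, of smooth muscle, 232 and 102.8 TPM, again with siAtf3 and scramble. The first principal component held 52.6% of the variance and separated the siAtf3 libraries, at 15.7 to 19.9, from the scramble libraries, at −24.5 to −15.4. The second component held 11.3% and set the 2 libraries numbered 1 apart from the other 6, at 16.8 with siAtf3 and 13.1 with scramble. All genes of the mitochondrial chromosome, not its mRNAs alone, took 2.15% to 2.56% of counts with siAtf3 and 1.88% to 2.16% with scramble.

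The silenced gene was lower in each siAtf3 library than in each scramble library, and it also varied widely among the cholesterol-loaded scramble libraries. Atf3 (ENSMUSG00000026628, chromosome 1, bases 190902493 to 190950236 on the minus strand, GRCm39) reached 52.7, 37.5, 37.1 and 36.3 CPM (counts relative to library sizes scaled by the trimmed mean of M-values, TMM) in siAtf3 libraries 1 to 4. In scramble libraries 1 to 4 it reached 561, 309.8, 439 and 281 CPM. The groups did not overlap: the lowest scramble library was above the highest siAtf3 library, and scramble libraries 1 and 3 were the highest. The means were 40.9 ± 7.88 CPM with siAtf3 and 397.8 ± 129 CPM with scramble (SD, n = 4 each), a log2 fold change of −3.28 ± 0.26 (SE; adjusted p = 3.57e-05 by the edgeR quasi-likelihood test), or 9.73-fold lower. Without cholesterol the same siRNA left 10.1 ± 0.78 CPM, against 26.8 ± 2.43 CPM with scramble (log2 fold change −1.40 ± 0.07, adjusted p = 4.28e-17). Silenced cells under cholesterol held more Atf3 mRNA, at 40.9 CPM, than scramble cells without cholesterol, at 26.8 CPM, a comparison that was not tested. The silencing was larger on the log2 scale with cholesterol than without (difference −1.88 ± 0.31, adjusted p = 0.00142). Nfe2l1, the other gene silenced in the study, averaged 743 ± 19.0 CPM with siAtf3 and 814 ± 43.3 CPM with scramble, which did not pass the test (log2 fold change −0.13, adjusted p = 0.0727). It passed without scramble library 1 (adjusted p = 0.0285) and with the library number as a block (adjusted p = 0.0339), and its sign turned by library totals (0.06).

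**Figure D1:**
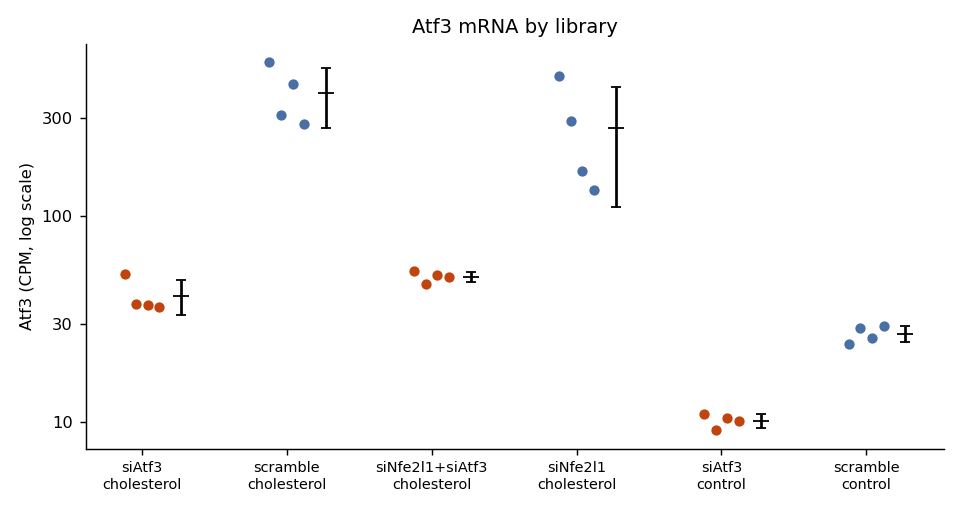
Atf3 level in CPM on a log axis, with 1 point per library, for siAtf3 and scramble with cholesterol, both siRNAs and siNfe2l1 alone with cholesterol, and siAtf3 and scramble in the control treatment; horizontal marks are means and bars their SD. The 4 siAtf3 libraries with cholesterol lie between 36.3 and 52.7 CPM and the 4 scramble libraries between 281 and 561 CPM.

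The RefSeq promoter of Atf3 (GRCm38.p6, chr1:191183284-191183583, minus strand, 250 bases before the start to 50 after it) is shown because ATF3 and the stress factors that induce it share binding letters. The capitals mark TTGCATCA, a C/EBP-ATF composite element on the opposite strand, which begins at position −110 from the start.
Atf3: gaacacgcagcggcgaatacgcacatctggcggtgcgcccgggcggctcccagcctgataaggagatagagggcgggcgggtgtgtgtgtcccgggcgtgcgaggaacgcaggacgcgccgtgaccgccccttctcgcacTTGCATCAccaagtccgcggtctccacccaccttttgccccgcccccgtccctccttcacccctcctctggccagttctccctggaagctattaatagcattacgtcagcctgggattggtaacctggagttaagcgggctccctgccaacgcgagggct

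Of 16984 genes tested, 7390 (43.5%) passed an adjusted p of 0.05 between siAtf3 and scramble with cholesterol. Of these, 3300 were higher (19.4% of genes tested) and 4090 lower (24.1%) with siAtf3, and 963 (5.67%) differed by more than 2-fold, 382 higher (2.25%) and 581 lower (3.42%). The split depends on the scaling. TMM factors were 1.021 to 1.048 for the siAtf3 libraries and 0.886 to 0.929 for the scramble libraries, and scaling by library totals moved the median of all genes to 0.17 on the log2 scale, against −0.02 under TMM. It then called 5996 genes higher and 2379 lower, so that 71.6% of calls were higher, against 44.65% under TMM. Counts of gene groups under TMM are therefore read below against the 19.4% higher and 24.1% lower of all genes. Where library totals turned a group's balance round, those counts stand beside it. Counts by library totals have another base, the 5996 higher and 2379 lower of 16984 genes, and are not to be read against the TMM shares. The shares also depend on level: among the 3397 genes of highest average log2 CPM 479 were higher and 1416 lower, and among the 3397 of lowest level 219 were higher and 233 lower, so groups of abundant genes are not matched by the all-gene shares.

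Among well expressed protein-coding genes whose groups did not overlap, the lowest after Atf3 was Ppargc1a, a transcriptional coactivator of mitochondrial biogenesis and thermogenesis. Ppargc1a reached 13.6, 10.8, 12.7 and 9.89 CPM in the siAtf3 libraries, against 63.1, 65.6, 77.6 and 56.8 CPM in the scramble libraries, a log2 fold change of −2.48 ± 0.11 (adjusted p = 9.1e-09). Lack of overlap between the groups was a condition of this choice and not a result. It held for 5244 called protein-coding genes at a mean log2 CPM of 2 or more, 2309 higher and 2935 lower. At any level, 3116 protein-coding genes were called higher and 3743 lower, with or without overlap. Lack of overlap is thus common here, also for genes named below. The delta-5 fatty acid desaturase gene Fads1 fell to 71.4, 68.3, 69.5 and 66.6 CPM with siAtf3, against 362, 390.3, 395 and 357 CPM with scramble (−2.45 ± 0.06, adjusted p = 1.18e-11). The next lowest were the serine protease gene Htra1 (−2.39), the uncharacterised gene 1700020L24Rik, the parathyroid hormone receptor gene Pth1r (−2.24), the linker histone gene H1f4 (−2.13), the collagen prolyl hydroxylase subunit P4ha3 (−2.08), the growth factor gene Bmp8b (−2.07), Col3a1 (−1.99), the metalloproteinase gene Mmp28 (−1.94) and the phosphorylase kinase subunit Phkg1 (−1.86).

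The highest gene among those that rose was Ogdhl. Ogdhl, a relative of the oxoglutarate dehydrogenase subunit, reached 13.4, 13.7, 15.9 and 13.2 CPM with siAtf3, against 3.00, 2.01, 2.78 and 2.86 CPM with scramble (log2 fold change 2.40 ± 0.12, adjusted p = 1.03e-08). Aldh1a1, which oxidises retinaldehyde to retinoic acid, reached 69.5, 67.96, 75 and 68.8 CPM with siAtf3, against 16.1, 13.5, 14.5 and 14.7 CPM with scramble (2.26 ± 0.07, adjusted p = 1.02e-10). Both genes were chosen among those without overlap of the groups, and the spread within each group was small beside the difference. Pfkfb1, an enzyme that sets fructose 2,6-bisphosphate, rose by 1.87 and Cd5l, a secreted protein known from macrophages, by 1.75 on the log2 scale. The other genes among the 12 highest were Krba1 (1.51), Smtnl2 (1.49), the p53 target Trp53inp1 (1.49), Zdhhc12 (1.46), Mup22 (1.45), Dhrs13 (1.44), Fgd1 (1.43) and Stk36 (1.37). Mup22 belongs to a cluster of near-identical genes whose reads the counting could have split, so its value is uncertain.

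The partners of ATF3 and the genes switched on within minutes of a stimulus were lower with siAtf3. Of 21 AP-1 and ATF/CREB genes, 16 fell, Atf3 itself among them, and 1 rose (median log2 fold change −0.36; 10 lower and 2 higher when scaled by library totals). Jun, the main AP-1 partner, named here after its values were seen, reached 348, 265, 292 and 281 CPM with siAtf3, against 939.5, 559.5, 806 and 519.8 CPM with scramble. All 4 siAtf3 libraries were below all 4 scramble libraries, and scramble libraries 1 and 3, the highest in Atf3, were also the highest in Jun. The log2 fold change was −1.25 ± 0.20 (adjusted p = 0.00102). The AP-1 subunit genes Fos (−0.84), Fosl1 (−0.83) and Junb (−0.75) fell as well, and Atf5, another leucine zipper gene, fell by 0.43. The gene that rose was Batf2 (1.06), a dimer partner of JUN proteins in immune cells. Batf2 rests on few reads, 18 to 40 a library with siAtf3 and 9 to 15 with scramble.

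Of 20 immediate early genes, 18 fell and 1 rose (median −0.84; 15 and 1 by library totals). The orphan nuclear receptor gene Nr4a3 reached 8.53, 6.00, 7.01 and 5.78 CPM with siAtf3, against 21.2, 19.9, 25.8 and 16.8 CPM with scramble (−1.62 ± 0.14, adjusted p = 2.51e-06). Egr1, a zinc finger factor induced by growth and stress signals, reached 346, 269.6, 302 and 274 CPM with siAtf3, against 466, 459.9, 460.1 and 447 CPM with scramble (−0.62 ± 0.07, adjusted p = 1.58e-05). In both genes the groups were apart, and the siAtf3 library numbered 1 was the highest of its group. Gadd45b (−1.10), a growth arrest gene, Klf6 (−0.82) and Zfp36 (−0.78), which encodes a protein that destabilises cytokine mRNAs, fell too. Egr3 was the member that rose (0.32).

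Without cholesterol, 8 of the 20 immediate early genes were lower and 3 higher with siAtf3, where 22.8% of all genes were lower and 23.1% higher. The difference between the effects with and without cholesterol passed the test, towards lower with cholesterol, for 12 of the 20, beside 9.66% of all genes. Egr1 shows the pattern: in the control treatment it averaged 33.6 CPM with siAtf3 and 33.7 CPM with scramble, and the difference between the effects was −0.62 (adjusted p = 5.47e-05). For Nr4a3 that difference was −1.82 (adjusted p = 1.23e-05) and for Jun −0.91 (adjusted p = 0.019).

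Phosphatases that switch off MAP kinases were lower together with these factors. Of 14 dual-specificity phosphatase and Sprouty genes, 9 fell and none rose (median −0.33; 5 lower and 2 higher by library totals). Dusp8, which acts on JNK and p38, reached 27.2, 18.7, 18.2 and 18.3 CPM with siAtf3, against 63.6, 44.5, 60.2 and 41.9 CPM with scramble (−1.35 ± 0.18, adjusted p = 0.000212). The scramble libraries numbered 1 and 3 were again the highest, and the groups did not overlap. Dusp10 (−1.27) and Dusp16 (−1.07), which also act on JNK and p38, fell to a similar extent, and Dusp4 (−0.31), which acts on several MAP kinases, fell less and did not pass the test when scaled by library totals. The inhibitor gene Spred2 fell by 0.39, also not past the test by library totals.

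Promoters of some genes that fell carry the letters that ATF3 and AP-1 dimers bind. The cAMP response element TGACGTCA reads the same on both strands, and the AP-1 element is TGACTCA on one strand and TGAGTCA on the other; neither contains the other. The element TGACGTCA stood in 3.25% of promoters of genes that fell, 2.06% of those that rose, 3.04% of those not called and 2.87% of all 14060 RefSeq promoters matched. The AP-1 element stood in 5.15% of promoters of genes that fell, 2.75% of those that rose, 3.99% of those not called and 4.02% of all. Among genes past 2-fold the AP-1 shares were 4.33% for lower and 4.24% for higher, and those of TGACGTCA were 4.09% and 1.06%, over 416 and 283 promoters. A C/EBP-ATF element, TGATGCAA or its opposite strand TTGCATCA, stood in 0.747% of promoters of genes that fell, 0.474% of those that rose and 0.619% of all. TGACGCAA stood in 0.907%, 1.04% and 0.846% of the same sets. These are shares of letter matches in 300-base windows that covered 10989 of 13948 protein-coding genes tested, with no test, and a match does not show a binding site.

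Promoters of 5 genes that fell are given because they hold such elements close to the start, with the element in capitals, all in GRCm38.p6 from RefSeq and each 5′ to 3′ on the strand of its gene. Dusp8 (chr7:142095235-142095534, minus strand) has TGACGTCA beginning at positions −107 and −63. Ch25h, cholesterol 25-hydroxylase (chr19:34475099-34475398, minus strand), has it at −61, and Plk2, a polo-like kinase gene induced by p53 (chr13:110394794-110395093, plus strand), at −62. Srxn1, sulfiredoxin (chr2:152105274-152105573, plus strand), has AP-1 elements at −102 and −45, and Bag3, a cochaperone gene (chr7:128523333-128523632, plus strand), has one at −20.
Dusp8: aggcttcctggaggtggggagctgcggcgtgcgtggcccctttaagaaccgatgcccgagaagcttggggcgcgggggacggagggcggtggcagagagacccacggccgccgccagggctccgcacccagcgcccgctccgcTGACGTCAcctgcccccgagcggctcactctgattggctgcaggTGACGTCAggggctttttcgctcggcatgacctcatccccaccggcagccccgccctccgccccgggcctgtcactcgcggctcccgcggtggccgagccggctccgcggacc
Ch25h: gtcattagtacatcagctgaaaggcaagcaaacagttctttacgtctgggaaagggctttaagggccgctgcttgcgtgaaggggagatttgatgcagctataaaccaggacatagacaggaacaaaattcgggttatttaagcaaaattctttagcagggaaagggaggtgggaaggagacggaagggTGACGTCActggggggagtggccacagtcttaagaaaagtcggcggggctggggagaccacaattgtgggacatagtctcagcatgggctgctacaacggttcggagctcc
Plk2: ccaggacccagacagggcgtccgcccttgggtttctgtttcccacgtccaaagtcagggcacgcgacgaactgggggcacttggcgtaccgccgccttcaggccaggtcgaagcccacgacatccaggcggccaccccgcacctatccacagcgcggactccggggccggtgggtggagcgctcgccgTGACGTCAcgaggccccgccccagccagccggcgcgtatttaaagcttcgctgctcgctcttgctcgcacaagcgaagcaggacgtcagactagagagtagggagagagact
Srxn1: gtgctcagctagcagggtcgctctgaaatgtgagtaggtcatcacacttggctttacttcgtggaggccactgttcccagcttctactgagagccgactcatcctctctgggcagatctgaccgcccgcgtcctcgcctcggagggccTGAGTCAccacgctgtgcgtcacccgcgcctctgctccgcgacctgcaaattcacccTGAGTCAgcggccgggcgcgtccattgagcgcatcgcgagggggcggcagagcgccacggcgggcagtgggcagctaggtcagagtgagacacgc
Bag3: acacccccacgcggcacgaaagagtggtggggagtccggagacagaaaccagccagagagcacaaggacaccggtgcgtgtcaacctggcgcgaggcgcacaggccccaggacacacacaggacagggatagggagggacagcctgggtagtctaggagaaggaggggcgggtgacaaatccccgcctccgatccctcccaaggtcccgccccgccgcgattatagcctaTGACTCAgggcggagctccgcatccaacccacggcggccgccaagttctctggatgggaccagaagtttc

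Every one of the 15 cytosolic heat shock genes tested fell, with a median log2 fold change of −0.68 and a range of −1.59 (Hspb1) to −0.33 (Hspd1), beside 24.1% lower among all genes. By library totals 14 of the 15 fell. Hsph1, a nucleotide exchange factor of HSP70, reached 288, 252, 269 and 276 CPM with siAtf3, against 705, 536, 611 and 556 CPM with scramble (−1.15 ± 0.08, adjusted p = 1.73e-07). Bag3 reached 246, 214, 232 and 226 CPM with siAtf3, against 534, 385, 449.8 and 380.4 CPM with scramble (−0.93 ± 0.10, adjusted p = 9.22e-06). The siAtf3 libraries were close to each other and all below the scramble libraries, among which those numbered 1 and 3 were the highest. The small heat shock protein gene Hspb8 (−0.75), the HSP90 gene Hsp90aa1 (−0.68) and Hsf1 (−0.68), the factor that drives the group, fell as well. In the control treatment 12 of the 15 were lower, with a smaller median of −0.14, beside 22.8% lower among all genes. The difference between the effects passed the test for 12, all towards lower with cholesterol, beside 9.66% of all genes. It was −0.67 for Hsph1 and −0.88 for Bag3.

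The integrated stress response, in which kinases that sense stress slow translation and raise ATF4, was lower in part. Of 23 of its genes, 17 fell and 2 rose (median −0.45; 16 and 2 by library totals). Ddit3, which encodes the factor CHOP, reached 155, 126, 121 and 127 CPM with siAtf3, against 350.1, 235, 269 and 218 CPM with scramble (−1.02 ± 0.14, adjusted p = 0.000279). No siAtf3 library came up to the lowest scramble library, and scramble library 1 was the highest. Slc7a5 and Slc3a2, the subunits of an amino acid exchanger, both fell by 0.84, and Ddit4 (−0.50), an inhibitor of mTORC1, Psat1 (−0.44), of serine synthesis, and Cebpg (−0.45), a partner of ATF4, fell less. Atf4, named after its values were seen, fell by 0.80. The 2 members that rose were the lipoprotein receptor gene Vldlr (0.23) and the cystine transporter gene Slc7a11 (0.41), named because they are the exceptions. In the control treatment 16 of the 23 were lower and 4 higher (median −0.31), beside 22.8% and 23.1% of all genes. Towards lower with cholesterol, the difference between the effects passed the test for 8, beside 9.66% of all genes. Ddit3 was among them (−0.70, adjusted p = 0.0136).

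The translation and folding parts of these responses moved little, and their direction depends on the scaling. Of 18 aminoacyl-tRNA synthetase genes, 10 fell and 2 rose under TMM, but 1 fell and 5 rose by library totals. Of 20 endoplasmic reticulum chaperone and unfolded protein response genes, 7 fell and none rose under TMM, but 3 fell and 7 rose by library totals. Hspa5, the main chaperone of the endoplasmic reticulum, reached 2646, 2374, 2343 and 2507 CPM with siAtf3, against 3097, 2648, 2680 and 2682 CPM with scramble. The highest siAtf3 library lay just below the lowest scramble library. Its log2 fold change of −0.17 ± 0.07 was close to the threshold (adjusted p = 0.0491) and turned to 0.02 by library totals. The call was also lost when any single library but siAtf3 library 1 was left out (adjusted p = 0.0516 to 0.147). The sensors Ern1 (−0.57) and Atf6 (−0.37) and the secreted factor gene Manf (−0.45) fell, as did the synthetase gene Cars (−0.54).

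Most genes of the NF-kB system and 13 of 24 chemokine and cytokine genes were lower with siAtf3. Of 19 genes listed for NF-kB subunits and their feedback inhibitors, 15 fell and 1 rose (median −0.54, and 14 and 1 by library totals). That list also holds genes of neither kind, such as Icam1 and Ptgs2. The inhibitor genes Nfkbib (−0.80) and Tnfaip3 (−0.55), Tnfaip2 (−0.54) and the adhesion molecule gene Icam1 (−0.76) fell. Of the 24 chemokine and cytokine genes, 1 rose (median −0.38; 10 lower and 2 higher by library totals); Ccl20 and Il1b had too few counts to be tested. Il6 reached 20.7, 15.4, 20.0 and 15.2 CPM with siAtf3, against 42.9, 27.2, 36.9 and 28.5 CPM with scramble (−0.93 ± 0.16, adjusted p = 0.000861). Ccl2, which attracts monocytes, reached 129.8, 112, 122 and 127 CPM with siAtf3, against 262, 161, 205 and 164 CPM with scramble (−0.69 ± 0.14, adjusted p = 0.00298). In both genes the groups were apart and scramble libraries 1 and 3 were the highest.

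The neutrophil chemokines were nearer to the spread of the libraries. Cxcl1 reached 233, 140.0, 190.0 and 163 CPM with siAtf3, against 436, 292, 381 and 245 CPM with scramble (−0.90 ± 0.22, adjusted p = 0.0106). Cxcl2 reached 48.4, 30.5, 42.8 and 36.1 CPM with siAtf3, against 88.8, 53.8, 79.1 and 48.8 CPM with scramble (−0.78 ± 0.23, adjusted p = 0.024). For each, the lowest scramble library lay only just above the highest siAtf3 library, and the call for Cxcl2 was lost without scramble library 1 (adjusted p = 0.0928) or scramble library 3 (adjusted p = 0.0637). Cx3cl1 (−0.61), Cxcl12 (−0.56), the alarmin gene Il33 (−0.51) and Csf1 (−0.33), a macrophage growth factor, fell.

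Ccl3 and Ptgs2 were the exceptions in these groups. Ccl3, a chemokine of low level here, reached 3.64, 3.04, 3.68 and 3.66 CPM with siAtf3, against 0.984, 0.587, 1.28 and 1.74 CPM with scramble (1.60 ± 0.24, adjusted p = 9.75e-05). Ptgs2, the inducible enzyme of prostaglandin synthesis, reached 235, 198, 233 and 215 CPM with siAtf3, against 145, 145, 156 and 145 CPM with scramble (0.58 ± 0.06, adjusted p = 9.77e-06). Neither gene overlapped between the groups. Without cholesterol Ptgs2 was lower with siAtf3 (−0.74), and the difference between the effects was 1.31 (adjusted p = 1.12e-07). In the control treatment 7 of the 19 NF-kB genes were lower and 3 higher, beside 22.8% and 23.1% of all genes. For 15 the difference between the effects passed the test towards lower with cholesterol, and for 2 towards higher. The shares of all genes were 9.66% and 6.54%.

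Interferon-response genes were mostly higher, while the factors Irf7 and Irf1 fell. Of 20, 13 rose and 3 fell with siAtf3 (median 0.35), beside 19.4% higher among all genes; by library totals 17 rose and 2 fell. Without scramble library 1, 8 rose. Irf7, a factor that amplifies interferon transcription, was the lowest member, at 187, 174, 182 and 198 CPM with siAtf3, against 386, 298, 334 and 318 CPM with scramble (−0.85 ± 0.08, adjusted p = 1.43e-06). Irf1 (−0.57), a factor that drives interferon genes, fell as well. Irf9, the DNA-binding subunit of the interferon-activated complex, reached 53.8, 63.9, 61.1 and 68.0 CPM with siAtf3, against 36.4, 47.6, 42.6 and 47.8 CPM with scramble (0.50 ± 0.09, adjusted p = 0.000626). The guanylate-binding protein gene Gbp2 rose by 0.31. Mx1, an antiviral GTPase gene named after its values were seen, was the highest of the group (1.03). Its groups overlapped, with 106 reads in siAtf3 library 1 and 130 in scramble library 2. In the control treatment 4 of the 20 genes were higher and 4 lower (median −0.09), near the 23.1% and 22.8% of all genes. The difference between the effects passed the test towards higher with cholesterol for 7, beside 6.54% of all genes. Towards lower it passed for 2, beside 9.66%.

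Acute-phase and complement genes were mostly lower. Of 14 acute-phase and complement genes, 11 fell and 1 rose (median −0.45; 10 and 1 by library totals). Hp, haptoglobin, a haemoglobin-binding protein that adipocytes secrete, reached 638, 801, 859 and 842 CPM with siAtf3, against 3002, 2683, 2689 and 2703 CPM with scramble (−1.82 ± 0.09, adjusted p = 6.2e-09). Without cholesterol Hp averaged 626 CPM with siAtf3 and 2872 CPM with scramble. Lcn2, an iron-siderophore-binding protein, reached 4.6, 4.55, 4.59 and 4.47 CPM with siAtf3, against 13.5, 13.97, 13.8 and 13.7 CPM with scramble (−1.59 ± 0.08). The complement genes C3 (−0.79) and Cfd (−0.73), adipsin, and the protease inhibitor gene Serpina3n (−0.57) fell. Of 14 genes described as ATF3 targets in other cells, 9 fell and 1 rose (median −0.27, and 4 and 1 by library totals), Slc7a11 being the one that rose. That list is not independent of the groups given here. It shares members with them, among others Ddit3, Ch25h, Il6, Adipoq and Slc7a11.

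**Figure D2:**
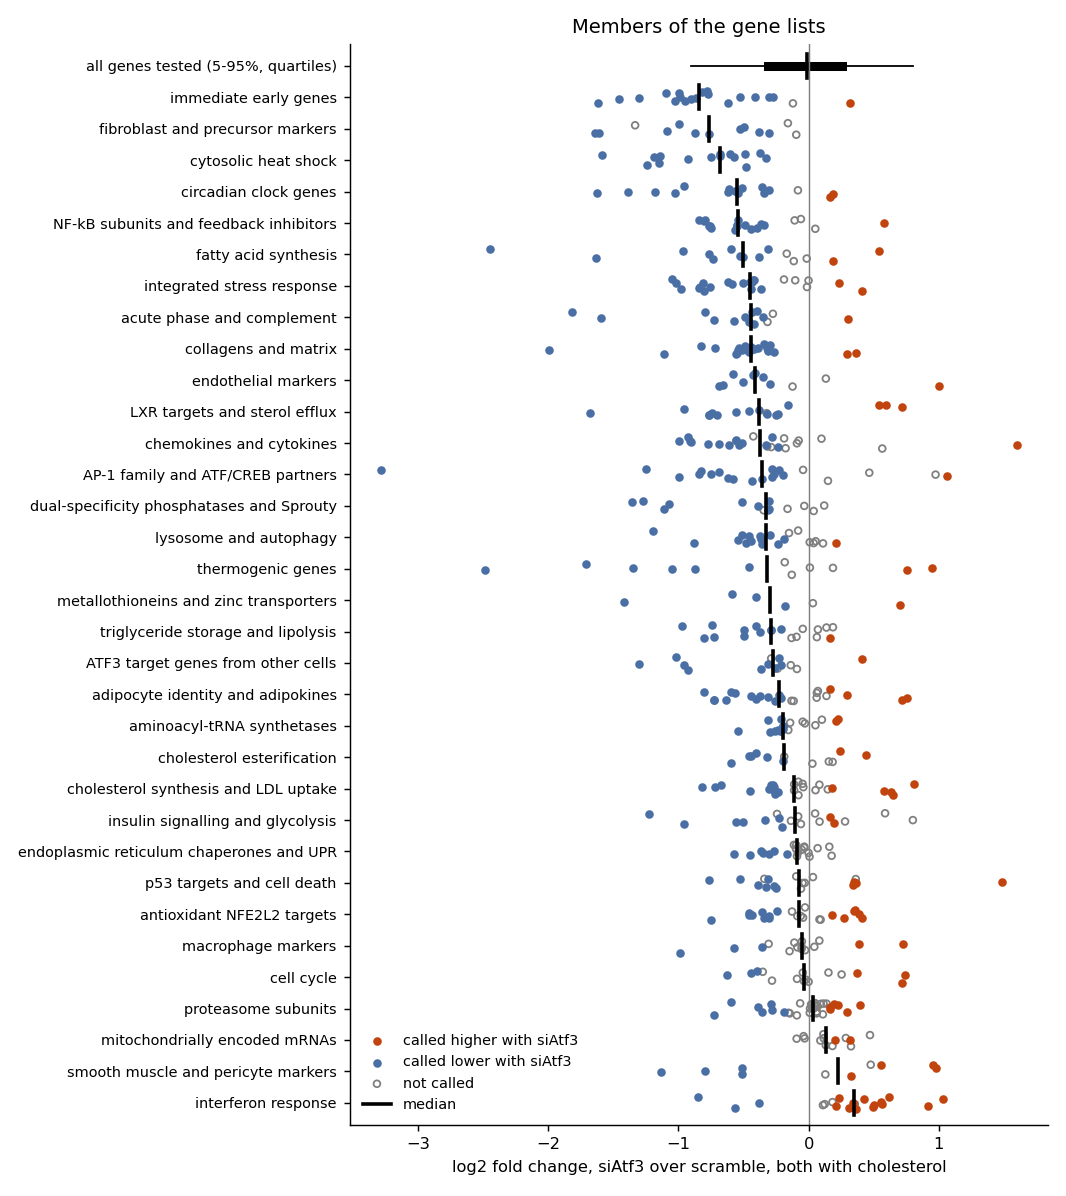
Log2 fold change of siAtf3 over scramble with cholesterol for every tested member of 33 gene groups, ordered by their medians (black ticks); filled points passed the test, open points did not, and the top row gives the 5% to 95% range and quartiles of all genes tested. Immediate early genes (median −0.84) stand at one end and interferon-response genes (median 0.35) at the other.

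Sterol genes did not move as one. Cells sense cholesterol in the endoplasmic reticulum through SCAP and INSIG proteins, which hold SREBP2 back when sterol is plentiful, and sense oxysterols through LXR, which drives export. Of 25 genes of cholesterol synthesis and uptake, 5 rose and 11 fell under TMM, but 8 rose and 4 fell by library totals. Hmgcs1, an early enzyme of the pathway, reached 239, 268, 286 and 278 CPM with siAtf3, against 146, 186, 161 and 189 CPM with scramble (0.65 ± 0.09, adjusted p = 3.81e-05). All 4 siAtf3 libraries were above all 4 scramble libraries, and library 1 was the lowest of each group. The thiolase gene Acat2 (−0.82), the sterol sensor partner Insig1 (−0.72) and Sqle (−0.45), squalene epoxidase, fell.

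The difference between the effects with and without cholesterol was 0.67 for Hmgcs1. In the control treatment 17 of the 25 genes were lower and 2 higher, beside 22.8% and 23.1% of all genes. For 7 the difference passed the test towards higher with cholesterol and for 1 towards lower, beside 6.54% and 9.66% of all genes.

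LXR targets and genes of sterol export were mostly lower, with Abcg1 among the exceptions. Of 17, 13 fell and 3 rose (median −0.38; 9 and 3 by library totals). Ch25h, which makes the LXR ligand and SREBP inhibitor 25-hydroxycholesterol, reached 27.5, 26.3, 27.04 and 25.99 CPM with siAtf3, against 60.8, 45.2, 51.8 and 49.9 CPM with scramble (−0.96 ± 0.08, adjusted p = 8.64e-07). The siAtf3 libraries were nearly equal and far below the lowest scramble library; the promoter of Ch25h is printed above with its TGACGTCA. Nr1h3, the LXRα gene, fell by 0.74, the phospholipid transfer protein gene Pltp by 0.76 and the desaturase gene Scd2 by 0.77. Abcg1, a sterol exporter, reached 422, 461, 469.7 and 446 CPM with siAtf3, against 269.5, 312, 315 and 299 CPM with scramble (0.59 ± 0.06, adjusted p = 6.08e-06). It rose more without cholesterol (1.11), and the difference between the effects was −0.52. The other members that rose were Mylip (0.71), a ubiquitin ligase gene, and Srebf1 (0.54), both named as the exceptions of the group.

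Abca1, the exporter that loads lipid-poor apolipoproteins, reached 636, 764, 786 and 742 CPM with siAtf3, against 626, 1032, 1070 and 933 CPM with scramble (−0.32 ± 0.15, adjusted p = 0.121). Scramble library 1 was the lowest of all 8 libraries, and the other 3 scramble libraries were above every siAtf3 library. Without scramble library 1 the adjusted p was 0.000106, and with the library number as a block it was 0.00479. Of 12 genes of cholesterol esterification and transport, 6 fell and 2 rose under TMM, but 4 fell and 4 rose by library totals. Soat2 (−0.59) and the sterol transporter gene Gramd1b (−0.44) fell and Gramd1a rose by 0.44; Gramd1b was higher with siAtf3 in the control treatment (0.38).

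Genes of fatty acid synthesis were mostly lower. Of 15, 10 fell and 2 rose (median −0.50; 9 and 3 by library totals). Acly, which makes cytosolic acetyl-CoA from citrate, reached 593, 577, 566 and 567 CPM with siAtf3, against 1692, 1860, 1881 and 1710 CPM with scramble (−1.63 ± 0.06, adjusted p = 4.55e-10). Slc25a1, which carries citrate out of mitochondria, fell by 1.40. Fasn, fatty acid synthase, reached 662, 902, 845 and 815 CPM with siAtf3, against 1586, 1594, 1764 and 1339 CPM with scramble (−0.96 ± 0.10, adjusted p = 8.11e-06). In each the groups were far apart. Elovl6 (−0.73), a fatty acid elongase, Acss2 (−0.59), acetyl-CoA synthetase, and Me1 (−0.52), malic enzyme, fell too. In the control treatment 13 of the 15 were lower and 1 higher, with a median of −0.52, beside 22.8% and 23.1% of all genes. Fads1 was lower there by a log2 fold change of −2.04.

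Genes of triglyceride handling followed in part. Of 19, 11 fell and 1 rose under TMM (median −0.29), but 7 fell and 5 rose by library totals. Lpl, lipoprotein lipase, which frees fatty acids for uptake, reached 4565, 4603, 4596 and 4668 CPM with siAtf3, against 7833, 8379, 7928 and 7987 CPM with scramble (−0.80 ± 0.05, adjusted p = 6.12e-08). The fold change was −0.80 without cholesterol too. Dgat1 (−0.97), which adds the last acyl chain of triglyceride, Gpam (−0.73), which adds the first, Plin4 (−0.50), a droplet coat protein gene, and Lipe (−0.41), hormone-sensitive lipase, fell.

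Of 23 adipocyte identity and adipokine genes, 13 fell and 4 rose under TMM (median −0.23), and 8 fell and 8 rose by library totals. Adipoq, adiponectin, reached 889, 815, 814 and 835 CPM with siAtf3, against 1055, 974, 985 and 998 CPM with scramble (−0.26 ± 0.05, adjusted p = 0.00166), and Pparg, the master regulator of fat cells, had a log2 fold change of −0.21. Neither passed the test by library totals. The fatty acid-binding protein gene Fabp5 (−0.60) and the retinol carrier gene Rbp4 (−0.57) fell, and Adrb3, the β3-adrenergic receptor gene, rose by 0.76. Fabp4 (0.07) and Plin1 (0.06) did not pass the test.

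The largest changes among thermogenic genes were downward. Of 12, 6 fell and 2 rose (median −0.32; 6 and 3 by library totals), led by Ppargc1a and by Elovl3 (−1.71), an elongase of brown fat. Ucp1, the mitochondrial uncoupler, was low in every library, at 7.65, 6.4, 8.51 and 8.01 CPM with siAtf3, against 23.7, 17.9, 20.03 and 16.4 CPM with scramble (−1.35 ± 0.12). Ppargc1a was also lower without cholesterol, at 4.46 CPM with siAtf3 and 11.3 CPM with scramble, and the difference between the effects was −1.14 (adjusted p = 3.99e-05).

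Of 18 genes of insulin signalling and glycolysis, 7 fell and 2 rose under TMM, and 3 fell and 6 rose by library totals. Irs2, an adaptor of the insulin receptor, reached 112, 93.3, 111 and 94.9 CPM with siAtf3, against 197, 187, 238 and 174 CPM with scramble (−0.96 ± 0.10, adjusted p = 6.16e-06). Pdk4, the kinase that shuts pyruvate dehydrogenase, reached 1405, 756, 952 and 759.9 CPM with siAtf3, against 2540, 2080, 2675 and 1757 CPM with scramble (−1.23 ± 0.23, adjusted p = 0.00347). The groups did not overlap in either gene, and siAtf3 library 1 was the highest of its group in both. The difference between the effects with and without cholesterol was −1.06 for Irs2.

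**Figure D3:**
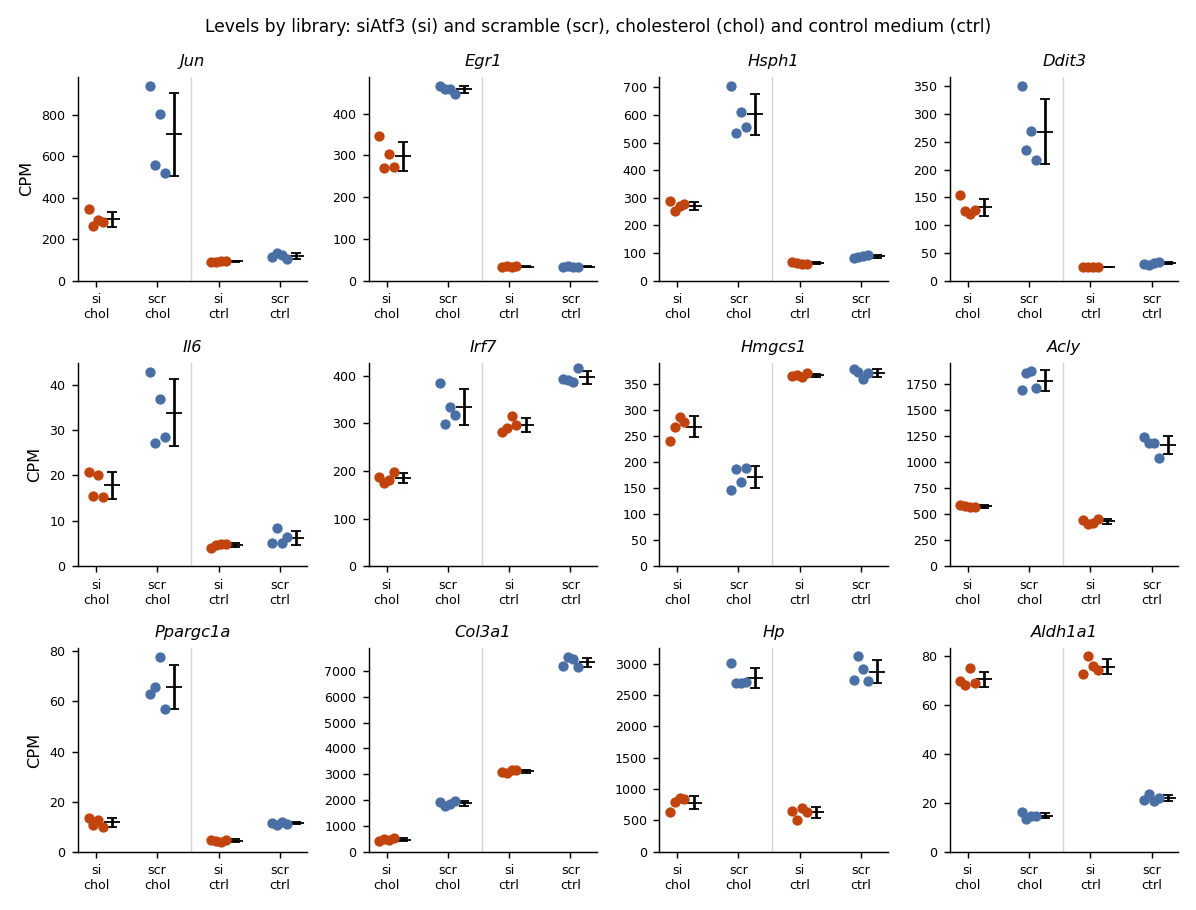
Level in CPM of 12 genes in every library with siAtf3 and scramble, with cholesterol on the left of each panel and without it on the right; points are libraries, horizontal marks are means and bars their SD. With cholesterol the siAtf3 libraries lie below the scramble libraries in Jun, Egr1, Hsph1, Ddit3, Il6, Irf7, Acly, Ppargc1a, Col3a1 and Hp, and above them in Hmgcs1 and Aldh1a1.

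Matrix genes and markers of fibroblasts were lower with siAtf3, with and without cholesterol. Of 25 collagen and matrix genes, 23 fell and 2 rose (median −0.44; 16 and 2 by library totals). Col3a1, a fibrillar collagen, reached 408, 497, 463 and 515 CPM with siAtf3, against 1923, 1769, 1835 and 1961 CPM with scramble (−1.99 ± 0.07, adjusted p = 6.91e-10). Without cholesterol it averaged 3115 CPM with siAtf3 and 7333 CPM with scramble. Col1a1, another fibrillar collagen, fell by 0.83. Of 13 fibroblast and precursor markers tested, 10 fell and none rose (median −0.77; 8 and 0 by library totals), among them Cd55 (−1.64), Fbn1 (−1.09), Ly6a (−0.999) and Dcn (−0.77). Pdgfrb, a receptor of mesenchymal cells, reached 73.7, 73.1, 72.5 and 72.1 CPM with siAtf3, against 223, 220.3, 246 and 203 CPM with scramble (−1.61 ± 0.06, adjusted p = 8.79e-10). The summed level of the fibroblast markers was 899.1 to 982.3 CPM with siAtf3 and 1647 to 1773 CPM with scramble. The precursor marker Pi16 was near 0, at 0.05 TPM with siAtf3 and 0.12 TPM with scramble, while Pdgfra averaged 58.8 and 74.0 TPM in the same order. In such bulk samples fewer cells of a type and less RNA per cell cannot be told apart, and the part of cell composition in these results was not tested.

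Markers of other cell types were mixed. Of 11 endothelial markers, 8 fell and 1 rose (median −0.41; 7 and 1 by library totals), and their summed level was 359.7 to 401.6 CPM with siAtf3 and 510.0 to 599.3 CPM with scramble. Cdh5 (−0.58) and Pecam1 (−0.50) fell. Of 15 macrophage markers, 2 rose and 3 fell, with sums of 152.9 to 191.6 CPM with siAtf3 and 143.3 to 175.7 CPM with scramble that overlapped. The lysozyme gene Lyz2 rose by 0.72 and the receptor gene Csf1r fell by 0.98, while the marker Cd163 was near 0 at 0.14 TPM with siAtf3 and 0.13 TPM with scramble. Of 10 smooth muscle and pericyte markers, 4 rose and 4 fell. Acta2, smooth muscle actin, reached 153, 149, 131 and 146 CPM with siAtf3, against 84.6, 65.7, 61.99 and 81.95 CPM with scramble (0.97 ± 0.10), whereas the smooth muscle myosin gene Myh11 fell by 1.14.

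Clock, lysosome and redox genes gave further counts. Of 16 circadian clock genes, 13 fell and 2 rose (median −0.55; 11 and 2 by library totals), including Per2 (−1.38), Hlf (−1.18), Arntl (−0.96), the BMAL1 gene, Bhlhe40 (−0.61) and Nr1d2 (−0.56). The hours at which libraries were harvested are not given in the sources used here. Of 20 lysosome and autophagy genes, 13 fell and 1 rose (median −0.33; 9 and 5 by library totals), led by the protease gene Ctsb (−1.19) and Gabarapl1 (−0.88), which acts in autophagosome formation. Of 22 antioxidant genes driven by NFE2L2, 9 fell and 6 rose under TMM, and 6 fell and 10 rose by library totals. Srxn1 fell by 0.75, while Gsr (0.35), glutathione reductase, and Nqo1 (0.39), a quinone reductase, rose. Hmox1, haem oxygenase, had a log2 fold change of −0.31 that did not pass the test by library totals.

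The remaining groups stayed near the shares of all genes or split. Of 33 proteasome subunits, 6 rose and 7 fell under TMM, and 22 rose and 4 fell by library totals. Without scramble library 1, 11 rose. Of 18 p53 target and cell death genes, 4 rose and 7 fell under TMM, and 6 rose and 4 fell by library totals; Trp53inp1 (1.49) and Plk2 (−0.77) were the extremes. Of 15 cell cycle genes, 3 rose and 3 fell under TMM, and 6 rose and 2 fell by library totals. Of 13 mitochondrially encoded mRNAs, 2 rose and none fell under TMM, and 7 rose and none fell by library totals. Of 6 metallothionein and zinc transporter genes, 4 fell and 1 rose under TMM, and 2 fell and 2 rose by library totals; Mt2 (−1.42), which binds zinc and copper, had overlapping groups.

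Genes were also sorted by how they respond to cholesterol, with a response measured in libraries that the comparison does not use: the siNfe2l1 cells with cholesterol against siNfe2l1 cells without. Nfe2l1, a transcription factor gene, is silenced in those cells, so the classes describe their response and not that of scramble cells. Of 276 genes raised more than 4-fold there, 170 (61.6%) fell and 9 rose with siAtf3 under cholesterol, with a median log2 fold change of −0.69. Of 847 raised 2- to 4-fold, 496 (58.6%) fell and 38 rose (median −0.48), and of 3641 raised less than 2-fold, 1392 (38.2%) fell and 403 rose. Of 7843 genes not called in that response, 1249 (15.9%) fell and 1514 rose. By library totals 145 of the 276 and 379 of the 847 fell.

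Genes lowered by cholesterol included both directions. Of 3056 lowered less than 2-fold, 1078 (35.3%) rose and 587 fell with siAtf3. Of 1058 lowered 2- to 4-fold, 226 rose and 164 fell, and of 263 lowered more than 4-fold, 32 rose and 32 fell. By library totals 1623 rose and 347 fell in the first class and 325 rose and 99 fell in the second. Without cholesterol the siAtf3 effect had a median of −0.03 over the 276 most raised genes and −0.05 over the 847. The difference between the effects passed the test towards lower with cholesterol for 100 of the 276 and 341 of the 847, beside 9.66% of all genes.

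**Figure D4:**
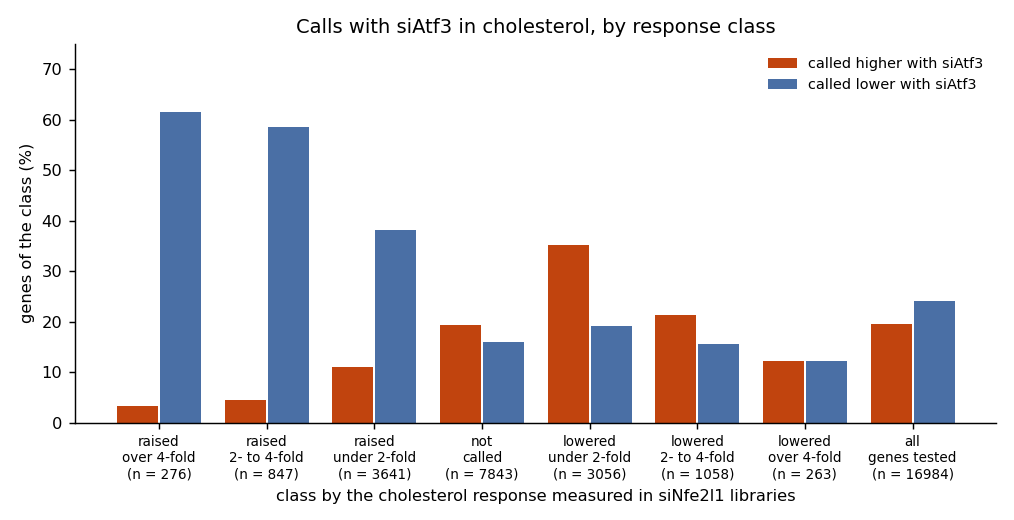
Percentage of genes called higher and called lower with siAtf3 against scramble under cholesterol, for 7 classes of cholesterol response in siNfe2l1 cells and for all genes tested, with the number of genes under each pair of bars. The share called lower is 61.6% in the class raised more than 4-fold and 15.9% in genes not called.

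The same siRNA was tested in 2 other settings that share no library with the main comparison. Without cholesterol 7792 genes (45.9%) passed the test between siAtf3 and scramble, 3926 higher and 3866 lower under TMM, and 7008 higher and 2321 lower by library totals. In siNfe2l1 cells with cholesterol, 4791 genes (28.2%) passed between both siRNAs and siNfe2l1 alone, 2760 of them lower under TMM, and 3660 were higher and 1803 lower by library totals. Of the calls with cholesterol, 4732 were called in the same direction without it (64.0% of the calls with cholesterol and 60.7% of those without), and 261 in the opposite one. In siNfe2l1 cells 3821 were called in the same direction (51.7% and 79.75%) and 14 in the opposite one. Of the 963 genes past 2-fold, 840 had the same sign without cholesterol and 910 had it in siNfe2l1 cells.

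**Figure D5:**
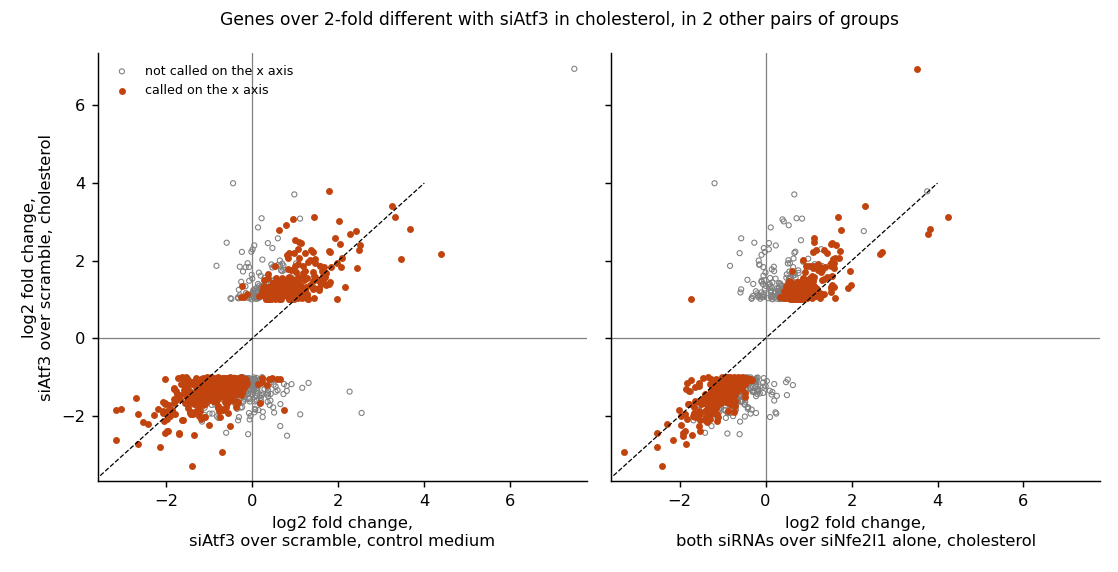
Log2 fold change for the 963 genes past 2-fold with siAtf3 under cholesterol, on the vertical axis, against that of siAtf3 without cholesterol (left) and of both siRNAs over siNfe2l1 alone with cholesterol (right), on the horizontal axes; filled points passed the test on the horizontal axis and the dashed line marks equal values. Of these genes 840 have the same sign in the left panel and 910 in the right one.

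The siAtf3 effect differed between cholesterol and the control treatment for 2750 genes (16.2%), 1110 towards higher and 1640 towards lower with cholesterol under TMM, and 1475 and 1291 by library totals. The carrier of the control treatment is not given in the sources used here, so cholesterol and its carrier cannot be told apart in these differences. Besides Ptgs2, Plpp3, a lipid phosphate phosphatase gene, had one of the smallest adjusted p-values: it fell by 0.72 with cholesterol and had a log2 fold change of 0.18 without it, a difference of −0.91 (adjusted p = 1.12e-07). Obsl1 and Cbx6 rose by 1.31 and 1.33 with cholesterol, 0.97 and 0.96 more than without. Acta2 gained 1.05 and Pth1r lost 1.24 on the same scale.

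In siNfe2l1 cells with cholesterol, adding siAtf3 brought Atf3 to 50.8 ± 2.99 CPM, against 268 ± 157 CPM with siNfe2l1 alone (log2 fold change −2.40, adjusted p = 0.00839). The siAtf3 effect differed between siNfe2l1 and scramble cells for 254 genes (1.50%), 177 towards higher and 77 (0.453%) towards lower in siNfe2l1 cells under TMM, but 68 and 110 by library totals. The lysosomal phospholipase gene Pla2g15 rose by 0.55 in scramble cells, with −0.21 in siNfe2l1 cells. The log2 fold change was higher in siNfe2l1 cells than in scramble cells by 0.90 for Acly, 0.63 for Slc25a1 and 1.45 for Ucp1. Of the 15 fatty acid synthesis genes, 7 differed towards higher in siNfe2l1 cells (1.04% of all genes did) and none towards lower. In siNfe2l1 cells 5 of the 15 heat shock genes, 13 of the 19 NF-kB genes, 22 of the 25 matrix genes and 10 of the 14 acute-phase and complement genes were lower with siAtf3 (16.3% of all genes were lower). In the same libraries 5 of the 20 immediate early genes (median −0.54) and 6 of the 24 chemokine and cytokine genes (−0.29) were lower. So were 3 of the 23 integrated stress response genes (−0.28) and 1 of the 18 aminoacyl-tRNA synthetase genes (−0.02). Of the 21 AP-1 and ATF/CREB genes (−0.15), Atf3 alone was lower. No member of these groups passed the test of the difference between siNfe2l1 and scramble cells. Replicates of siNfe2l1 with cholesterol were also more spread: chi-square per degree of freedom of raw counts between pairs was 10.06 to 42.17. In scramble with cholesterol it was 4.44 to 32.89. Of the 20 interferon-response genes 1 was higher and 3 were lower, with a median of 0.14. Of all 16984 genes, 2031 were higher and 2760 lower in that comparison.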

How the data were processed

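Poly(A) RNA of mouse primary adipocytes was sequenced, and the authors deposited raw read counts per gene for 32 libraries in 8 groups of 4. Per the submitters' processing notes, reads were handled with fastp, HISAT2 2.0.5 and featureCounts 1.5.0-p3 on GRCm39; the treatment of strand and of reads that map to several genes is not given in the sources used here, so antisense pairs and near-identical genes are uncertain. Libraries were grouped by their titles; the suffix C in column names was read as cholesterol.

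Genes with enough counts in all 8 groups' design (edgeR filterByExpr, minimum count 10 and minimum total 15) numbered 16984 of 56748. TMM factors came from all 32 libraries. The edgeR 4.0.16 robust quasi-likelihood test (R 4.3.3) was fitted on the 8 libraries compared, with 6 residual degrees of freedom, and p-values were adjusted by Benjamini-Hochberg over all genes tested, with calls at 0.05. SE is the log2 fold change divided by the square root of F. Differences between effects are interaction terms over 16 libraries. TPM was computed from the counts and the gene lengths in the file, over the genes tested and without TMM factors. Alternatives used DESeq2 1.42.0 and limma 3.58.1. The scripts were tested on simulated data. Libraries with the same number deviated together from their group means (r = 0.3675, 0.2732, 0.1766 and 0.2908 for numbers 1 to 4 over 11067 genes), so the replicate number was also used as a block. Pairs with different numbers ranged from −0.3492 to 0.2672. Above the value for number 3 were siAtf3 library 3 with scramble library 2 (0.2672) and siAtf3 library 2 with scramble library 4 (0.1911).

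The members, gene lists and tests were chosen with earlier results of these data known. Genes named are Atf3, Nfe2l1, the 12 highest and 12 lowest protein-coding genes called without overlap of the groups, at a mean log2 CPM of 2 or more, up to 5 called members of each list with the smallest adjusted p, the 5 smallest adjusted p-values of each interaction, and 14 genes of interest; some genes that this rule names are not reported here. The following were named after their values were seen: Jun, Atf4, Hspb1, Hspd1, Batf2, Egr3, Vldlr, Slc7a11, Mx1, Mylip, Srebf1, Fabp4 and Plin1. The cholesterol-response classes and the letters TGATGCAA were also added after seeing the data.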

Additional observations from a re-analysis of the deposited data

Results flagged for a closer look

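In 76 groups of 4 libraries, those whose values are given above, a library's distance from the nearest of the other 3 exceeded the 95% limit of Dixon's test in 6; chance gives about 1 in 20 groups. Library 1 with siAtf3 and cholesterol was high in Atf3 (52.7 CPM, where the other 3 lay at 36.3 to 37.5 CPM) and in Dusp8 (27.2 CPM, others 18.2 to 18.7 CPM). Library 2 of that group was low in Ccl3 (3.04 CPM, others 3.64 to 3.68 CPM). Scramble library 1 with cholesterol was high in Hp (3002 CPM, others 2683 to 2703 CPM) and Hspa5 (3097 CPM, others 2648 to 2682 CPM), and scramble library 3 was high in Ptgs2 (156 CPM, others 144.7 to 145 CPM).

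Of 159 genes named above, 79 passed the test of the difference between siAtf3 log2 effects with and without cholesterol (edgeR, adjusted over all genes). Of all genes, 16.2% passed it. Genes were named partly for small adjusted p-values in these libraries and in this test, so these shares are not comparable. Values are the effect with cholesterol minus that without. Below 0, towards lower with cholesterol, were the silenced gene and other transcription factors and immediate early genes: Atf3 (−1.88), Nr4a3 (−1.82), Jun (−0.91), Fos (−0.69), Junb (−0.55), Egr1 (−0.62), Klf6 (−0.46) and Zfp36 (−0.77). Phosphatase genes were Dusp10 (−1.08), Dusp8 (−0.75) and Dusp16 (−0.58). Among chaperone and stress genes the values were Hspb1 (−1.09), Bag3 (−0.88), Hsph1 (−0.67), Hspb8 (−0.58), Hsp90aa1 (−0.53), Hspd1 (−0.31), Ddit3 (−0.70), Slc3a2 (−0.47), Cebpg (−0.46), Ern1 (−0.45), Ddit4 (−0.37) and Hmox1 (−0.49). Among inflammatory genes they were Icam1 (−0.63), Il33 (−0.63), Nfkbib (−0.53), Tnfaip3 (−0.46), Cx3cl1 (−0.44), Irf1 (−0.43) and Irf7 (−0.43). Among metabolic, sterol and clock genes they were Pdk4 (−1.28), Ppargc1a (−1.14), Irs2 (−1.06), Plpp3 (−0.91), Gramd1b (−0.82), Ucp1 (−0.71), Ch25h (−0.71), Abcg1 (−0.52), Nr1h3 (−0.43), Fads1 (−0.41), Dgat1 (−0.27), Lipe (−0.22), Phkg1 (−0.65), Arntl (−0.61) and Nr1d2 (−0.48). Among matrix, mesenchymal, lysosomal and other genes they were 1700020L24Rik (−1.73), Mmp28 (−1.37), Pth1r (−1.24), Cd55 (−1.01), P4ha3 (−0.89), Pdgfra (−0.77), Col3a1 (−0.76), Pdgfrb (−0.76), Gabarapl1 (−0.51), Dcn (−0.50), Col1a1 (−0.44), Htra1 (−0.42), Myh11 (−0.38) and Ctsb (−0.19). Above 0, towards higher with cholesterol, were the sterol and metabolic genes Srebf1 (0.76), Pfkfb1 (0.69), Hmgcs1 (0.67), Gsr (0.50), Aldh1a1 (0.47), Elovl6 (0.43) and Psat1 (0.30), the immune genes Mx1 (1.36), Ptgs2 (1.31), Irf9 (0.38), Serpina3n (0.23) and Tnfaip2 (0.19), and Smtnl2 (1.23), Acta2 (1.05), Obsl1 (0.97), Cbx6 (0.96), Fgd1 (0.94), Krba1 (0.57), Spred2 (0.44) and Zdhhc12 (0.43).

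In a second such test, under cholesterol between siNfe2l1 and scramble cells, 33 of the same 159 genes passed, beside 1.50% of all genes. The same limit of choice holds. The difference is the siAtf3 log2 effect in siNfe2l1 cells minus that in scramble cells. It was above 0 for the lipid genes Elovl3 (0.91), Acly (0.90), Fasn (0.78), Slc25a1 (0.63), Me1 (0.55), Fads1 (0.54), Acat2 (0.53), Elovl6 (0.52), Dgat1 (0.50), Acss2 (0.41), Sqle (0.36), Fabp5 (0.34) and Lpl (0.27) and for Ucp1 (1.45), H1f4 (0.99), Phkg1 (0.67), Hmox1 (0.54), Htra1 (0.53), Nfe2l1 (0.52), Pdgfrb (0.48), Rbp4 (0.44) and Ctsb (0.39). It was below 0 for Cd5l (−1.14), Trp53inp1 (−0.95), Zdhhc12 (−0.86), Pfkfb1 (−0.86), Pla2g15 (−0.76), Ogdhl (−0.75), Cbx6 (−0.63), Krba1 (−0.63), Obsl1 (−0.57), Aldh1a1 (−0.53) and Abcg1 (−0.37). The number of genes called in this last test moved widely with the libraries included, as given below.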

How the results depend on the processing

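The counts of genes called kept within 1.5 times of the main count for siAtf3 against scramble with cholesterol, without cholesterol and in siNfe2l1 cells, and for the difference between cholesterol and control treatment, under each setting run: DESeq2 size factors, library totals, no filter on low counts, the DESeq2 Wald test, limma-voom, a fit over all 8 groups, the replicate block and each library left out. Leaving out 1 library gave 6307 to 7817 calls with cholesterol, 7214 to 7576 without, 3621 to 5393 in siNfe2l1 cells and 2128 to 3268 for the difference between treatments. With the replicate number as a block the 4 counts were 8263, 7719, 4866 and 2904; for the main comparison, leaving out both libraries numbered 1 gave 8310 and library totals with the block 9228, settings chosen after seeing the data. The count of genes whose siAtf3 effect differed between siNfe2l1 and scramble cells was 254 and moved to 560 with the DESeq2 Wald test, 865 with all 8 groups in the fit, 793 with the replicate block and 91 to 915 with 1 library left out. The lowest was without siAtf3 library 2 and the highest without siNfe2l1 library 1; the cause was not tested. By library totals the log2 fold changes of Nfe2l1 (0.0556), Hspa5 (0.0170) and Slc39a14 (0.00241), a zinc transporter gene, turned positive, and with the block added they were 0.0566, 0.0178 and 0.00441. Atf3 was between −3.43 and −3.06 and past the threshold under each of these settings. Counts of 1 or 2 risen members of a gene group changed to between 0 and 3 when single libraries were left out. The 4 risen adipocyte identity genes became 2 without scramble library 3. Fallen counts moved too: the 13 chemokine and cytokine genes became 9 to 14 with single libraries left out. The 16 fallen AP-1 and ATF/CREB genes became 13 to 16. Cxcl1, Cxcl2, Ccl2, Il6 and other genes that vary between scramble libraries have wide errors at 4 libraries a group, and Ccl3 rests on few reads, 82 to 105 a library with siAtf3 and 14 to 42 with scramble.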
